A study of Rattus norvegicus with 13 samples.

Results

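Macrophage, dendritic cell and MHC class II genes were examined in the thyroid of rats exposed to potassium iodide (KI) before birth. The set held 34 genes out of 36174 gene names on the array, and each gene was read through its brightest probe. The genes were selected by name for their role in phagocytes and antigen presentation, with array results of the same animals already known, and Cx3cr1 and Lat2 were singled out on the difference between KI-treated and control animals described here. The tissue came from male Wistar rats 51 days old, taken 30 days after weaning. Mothers of the KI-treated group (6 animals) received 1 mg/kg KI by gavage each day for 8 days from gestational day 9, and mothers of the control group (7 animals) received saline on the same schedule. The pups themselves were not dosed. The labels do not say which animals shared a litter, so p-values measure the spread between these animals only.

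Tissue macrophages and dendritic cells take up debris and foreign material through scavenger and lectin receptors, and pass activating signals through small adaptor proteins with cytoplasmic tyrosine motifs. Professional antigen-presenting cells display peptides on MHC class II molecules, each a pair of an alpha and a beta chain that is held by the invariant chain Cd74 until it reaches the peptide-loading compartment. The transcriptional coactivator Ciita switches these genes on together. Survival of most tissue macrophages depends on the receptor Csf1r and its ligands.

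Levels are given as the log2 signal minus the log2 signal at the 75th percentile of that array's probes, so 0 marks this percentile and a step of 1 is a doubling. Levels of different members are not set against each other, because probes differ in brightness for the same amount of RNA. In marker lists, the brightest gene is the one whose probe gave the most signal, and a summed level adds signal and not RNA amounts. Of the 34 genes, 33 had a probe and no probe carried the name Itgax. The software called 26 of them well above background on all 13 arrays and Spi1 on 10 arrays, and these 27 genes were tested. The remaining 6, Mrc1, RT1-Ba, Cybb, Msr1, Marco and Ccr2, reached that call on at most 1 array. In whole-tissue RNA, fewer cells of a type and less RNA per cell cannot be told apart.

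Between 34840 and 41050 of 58717 gene spots stood well above background on each array. The 75th percentile of the log2 signal was 8.48 to 9.10 on 11 arrays, while control 6 was at 7.92 and control 4 at 8.18. Follicular cell markers were well above background on all arrays for 9 of 10 genes, Slc26a4 being the exception on all of them, and their summed level was 10.21 to 10.39 in KI-treated and 10.27 to 10.86 in control animals, Tg being the brightest. KI-treated 1 stood apart in lymphocyte genes. The summed level of 8 T cell markers, Cd3d being the brightest, was 4.74 there and -1.09 to -0.33 in the other 12 animals. All 8 were well above background on that array, and the thymocyte gene Rag1 was at 0.15 there against at most -5.65 elsewhere. In control 4 the B cell gene Cd79b was at 0.71, and the summed level of 6 B cell markers, Pax5 being the brightest, was 1.67 there, the highest of all animals. Where the highest level of a gene was in either animal, the difference is given with and without it.

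The class II group had 6 members, the invariant chain Cd74, the alpha chains RT1-Da and RT1-Ba, the beta chains RT1-Db1 and RT1-Bb, and the coactivator Ciita. The array annotation, whose header names build rn4, placed the probes of the 4 chain genes on chromosome 20 within 91142 bases and that of Cd74 on chromosome 18. RefSeq gave the sequence before the start site for 24 of the 34 members. Class II promoters are known for an X box and a Y box bound by factors that recruit Ciita, and the 130 bases before the start site of the chain genes and Cd74 are shown for that reason, each written 5′ to 3′ on the strand of the gene. Capitals mark TAGCAAC, letters of an X box, and CTGATTGG, letters of a Y box, which were chosen after these sequences had been read.

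RT1-Da, chr20:4515285-4515414, + strand, GRCr8: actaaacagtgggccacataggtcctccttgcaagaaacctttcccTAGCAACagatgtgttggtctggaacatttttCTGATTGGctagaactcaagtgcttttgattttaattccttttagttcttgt
RT1-Db1, chr20:4560163-4560292, - strand, GRCr8: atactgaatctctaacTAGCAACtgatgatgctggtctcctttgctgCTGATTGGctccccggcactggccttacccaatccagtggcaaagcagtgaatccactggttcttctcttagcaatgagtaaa
RT1-Ba, chr20:4576927-4577056, + strand, GRCr8: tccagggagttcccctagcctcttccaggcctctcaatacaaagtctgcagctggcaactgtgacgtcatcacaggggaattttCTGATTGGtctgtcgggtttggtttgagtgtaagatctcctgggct
RT1-Bb, chr20:4604119-4604248, - strand, GRCr8: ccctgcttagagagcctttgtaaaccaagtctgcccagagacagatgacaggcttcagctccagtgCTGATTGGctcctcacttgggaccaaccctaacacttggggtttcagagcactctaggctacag
Cd74, chr18:56527076-56527205, + strand, GRCr8: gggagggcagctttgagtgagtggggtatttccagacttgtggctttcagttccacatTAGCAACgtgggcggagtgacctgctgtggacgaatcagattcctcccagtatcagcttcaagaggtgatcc

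CTGATTGG stood in all 4 chain genes, 46 to 83 bases before the start. Searched on both strands in the 250 bases before the start, it was found in 3.26% of 27457 rat promoters and in 5 of the 24 members with a sequence, the fifth being Cd68. TAGCAAC stood in RT1-Da, RT1-Db1 and Cd74, and in 2.92% of all promoters. In RT1-Da and RT1-Db1 the first letters of both motifs lay 32 and 31 bases apart, and both motifs together on the shown strand were found in 0.0437% of promoters. The pentamer CCAAT, whose reverse complement lies inside CTGATTGG, was present in 15 of 24 members against 34.3% of promoters. GAGGAA, letters of the site that the macrophage factor Spi1 is known to bind, was present in 14 of 24 members against 23.2%. These counts describe letters and not binding.

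In the arrays, Cd74 was 3.22 at the lowest, 3.54 at the median and 4.01 at the highest in KI-treated animals, and 3.08, 3.28 and 3.77 in control animals. KI-treated 1 was the highest of all animals and control 6 the lowest, and the groups overlapped. The difference, KI-treated minus control, was 0.19 (SE 0.15, limma adjusted p = 0.534), and 0.11 without KI-treated 1. RT1-Bb ran from 1.16 over a median of 1.83 to 2.62 in KI-treated and from 0.78 over 1.59 to 2.03 in control animals. Again KI-treated 1 held the highest value. The difference was 0.25 (SE 0.24, limma adjusted p = 0.588), and 0.09 when that animal was left out. RT1-Db1 was 1.48, 1.79 and 2.16 at the lowest, median and highest of the KI-treated and 0.87, 1.59 and 2.02 of the control animals. Its highest level was in KI-treated 1 too and its lowest in control 6. The difference was 0.27 (SE 0.19, limma adjusted p = 0.509), and 0.20 without KI-treated 1. The part of the lymphocyte RNA of that array in these values was not tested.

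RT1-Da spanned 1.47 to 2.22 (median 1.74) in KI-treated and 1.53 to 2.36 (median 1.72) in control animals, and the group means were both 1.79. The highest level was in control 4 and the next in KI-treated 1. The limma adjusted p was 0.992. The difference was 0.09 without control 4 and -0.09 without KI-treated 1, so no direction can be given. Ciita, the coactivator, was -2.39 to -1.82 (median -2.28) in KI-treated and -2.52 to -1.79 (median -1.98) in control animals, with a difference of -0.15 (SE 0.15, limma adjusted p = 0.617). RT1-Ba, the partner chain of RT1-Bb, was not well above background on any array, at -7.35 to -6.03 in KI-treated and -6.92 to -5.78 in control animals. No class II gene passed the adjusted threshold.

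**Figure D1:**
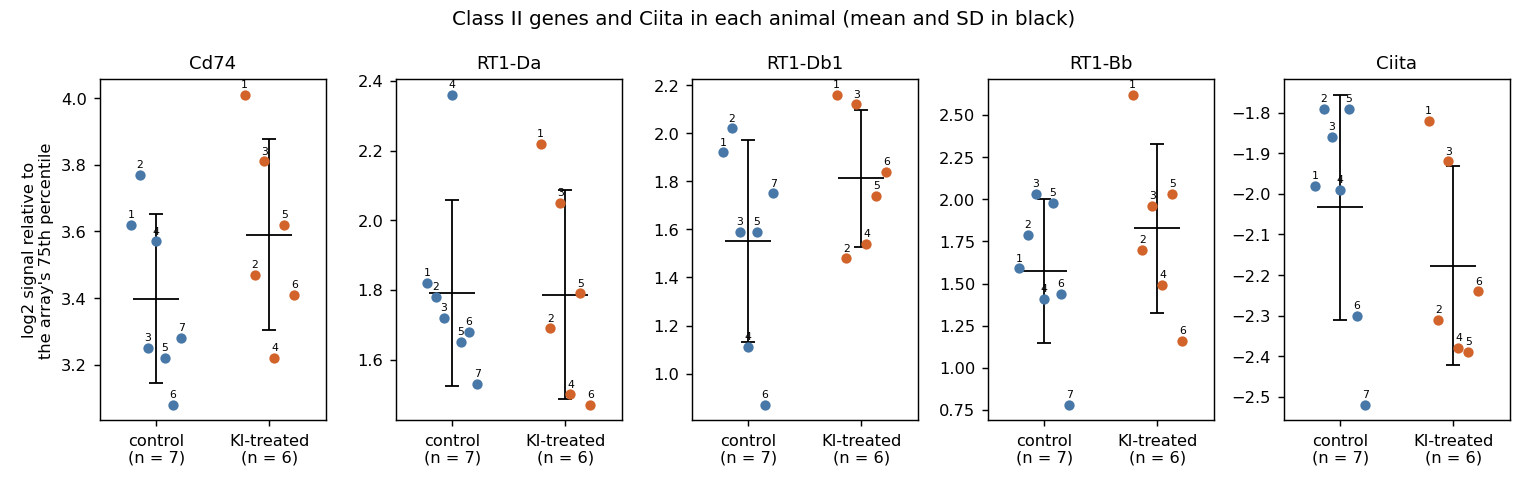
Level of Cd74, RT1-Da, RT1-Db1, RT1-Bb and Ciita in each animal, on the y axis as log2 signal above the array's 75th percentile, with the group on the x axis (7 control, 6 KI-treated animals). Numbers are the animals' replicate numbers and black bars the mean and SD. The groups overlap in every panel, and KI-treated 1 is the highest point for Cd74 (4.01), RT1-Bb (2.62) and RT1-Db1 (2.16).

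C1qa, C1qb and C1qc encode the 3 chains of C1q, the recognition unit of the classical complement pathway, which is made mostly by macrophages. Their probes lay within 15107 bases on chromosome 5 in the array annotation. C1qb was 2.69, 3.18 and 3.31 at the lowest, median and highest of the KI-treated animals, and 2.79, 3.07 and 4.04 of the controls. The upper end of the controls was control 4, and the next control was at 3.42. The difference was -0.16 (SE 0.19, limma adjusted p = 0.659), and -0.03 without control 4. C1qa was 1.46 to 2.02 (median 1.71) in KI-treated and 1.35 to 2.20 (median 1.50) in control animals. Here control 1 was highest and control 6 lowest. C1qa differed by 0.04 (SE 0.15) and C1qc by 0.16 (SE 0.16), with limma adjusted p-values of 0.879 and 0.601. Without KI-treated 1, which held the highest C1qc level, the differences were -0.02 and 0.10.

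Among ligands and receptors, Csf1, the macrophage growth factor, was -0.88 to -0.02 (median -0.58) in KI-treated and -1.91 to -0.17 (median -0.72) in control animals. The largest positive difference of the set, 0.42 (SE 0.27, limma adjusted p = 0.471), belonged to it. Control 2 and control 7, at -1.91 and -1.77, made up the low end. Without control 7 the difference was 0.28. Csf1r, its receptor, held a narrow range in KI-treated animals, -2.08 to -1.81 (median -1.88), against -2.89 to -1.39 (median -1.62) in controls. Control 6 lay far below the other controls. The difference was -0.13 (SE 0.20, limma adjusted p = 0.737), and -0.31 without that animal. Cx3cl1, the membrane-bound chemokine that binds Cx3cr1, was 4.36 to 5.24 (median 4.65) in KI-treated and 4.34 to 5.60 (median 4.86) in control animals, a difference of -0.24 (SE 0.22, limma adjusted p = 0.566). The 2 dim arrays, control 4 and control 6, held its highest values, and the difference was -0.13 without the first and -0.14 without the second. The monocyte chemokine Ccl2 was -1.74 to -0.09 and -1.79 to 0.00 in the respective groups, while its receptor Ccr2 was not well above background on any array.

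Adaptors and lysosomal proteins made up 6 members, Tyrobp, Fcer1g, Lat2, Laptm5, Cd68 and Aif1. All 6 differences were negative, from -0.61 for Lat2, which was selected on this comparison, to -0.05 for Laptm5, beside 60.7% of all probes tested. Cd68, Tyrobp, Fcer1g and Laptm5 rose and fell together between animals, so their signs do not count separately. Lat2 is described further on. Fcer1g, the gamma chain shared by Fc receptors, was 0.23 to 0.53 (median 0.45) in KI-treated and 0.41 to 1.26 (median 0.65) in control animals. Every KI-treated animal was below the control median, and control 4 was far above the other animals. The difference of -0.26 (SE 0.13) had a limma p of 0.0713 unadjusted and 0.411 adjusted, and an unadjusted two-sided exact permutation p of 0.0373. It was -0.17 without control 4. Cd68, a glycoprotein of macrophage lysosomes, was 0.11 to 0.72 (median 0.32) in KI-treated and 0.29 to 1.19 (median 0.43) in control animals. The difference of -0.19 (SE 0.16, limma adjusted p = 0.545) was -0.08 without control 4, which again was the highest.

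Tyrobp, the adaptor of Trem2 and related receptors, was 1.52 to 1.88 (median 1.78) in KI-treated and 1.56 to 2.30 (median 1.83) in control animals. Its difference of -0.10 (SE 0.12) went to -0.02 without control 4. A second Tyrobp probe, annotated on the opposite strand, differed by -0.24 (SE 0.22, limma adjusted p = 0.573). Laptm5, a lysosomal membrane protein of blood cells, was 1.96 to 3.01 (median 2.32) and 2.17 to 3.1 (median 2.26), and its highest values were in control 4 and KI-treated 1. Laptm5 differed by -0.05 (SE 0.19), by 0.07 without control 4, by -0.17 without KI-treated 1 and by 0.04 after quantile normalization, so no direction can be given. Aif1, an actin-binding protein of macrophages known as Iba1, was 0.91 to 1.52 (median 1.45) in KI-treated and 1.25 to 2.16 (median 1.52) in control animals. The difference was -0.27 (SE 0.16, limma adjusted p = 0.44) by the brightest probe, -0.18 without control 4, its highest animal, and 0.01 (SE 0.13) by a second probe of the same transcript.

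Receptors for debris, sugars and microbial products were Cd163, Mrc1, Msr1, Marco, Clec10a, Trem2 and Cd14. Clec10a, a galactose-binding lectin of macrophages and dendritic cells, was 0.11, 0.53 and 0.83 at the lowest, median and highest of the KI-treated, and 0.64, 0.84 and 1.31 of the control animals. All 6 KI-treated animals lay below the control median, but KI-treated 5 and KI-treated 3 reached into the control range. The difference was -0.39 (SE 0.14, limma p = 0.0163 unadjusted and 0.358 adjusted), with an exact two-sided permutation p of 0.0128. Within the 5 slides that carried both groups it was -1.20 to 0.03, negative on 4, and without control 4, the highest animal, it was -0.32.

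Cd163, the haemoglobin scavenger receptor of resident macrophages, was -1.53 to -0.69 (median -0.96) in KI-treated and -1.61 to 0.18 (median -1.11) in control animals. Control 1 was alone above 0. The difference of -0.13 (SE 0.25) became 0.05 without it. Cd14, the lipopolysaccharide co-receptor, differed by 0.15 (SE 0.17), or 0.23 without control 4, and Trem2, a lipid receptor, by -0.05 (SE 0.33), with values of -2.92 to -1.25 and -2.65 to -1.26 in the groups. Mrc1, the mannose receptor, and Marco were well above background on 1 array each and Msr1 on none. For Marco that array was control 1, at -3.85, against at most -5.55 in the other 12 animals.

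Itgam, the alpha chain of the complement receptor integrin known as CD11b, was -2.39, -1.70 and -1.21 at the lowest, median and highest of the KI-treated animals, and -2.0, -0.98 and 0.00 of the controls. Control 7 was the highest of all animals, while control 1 and control 2, at -1.63 and -2.0, lay inside the KI-treated range. The difference was -0.78 (SE 0.29, limma p = 0.0174 unadjusted and 0.359 adjusted), with an exact two-sided permutation p of 0.0373. It was -0.62 without control 7 and -0.48 with slide as a block. Within slides it was -1.08 on slide 1 and -1.04 on slide 5, but -0.16 to 0.03 on the other 3, so that it was not seen on every slide. This probe was designed to a predicted transcript, and a second probe, to the curated one, was well above background on only 2 arrays and differed by -0.18 (SE 0.59).

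The effector genes were Lyz2, Ncf1 and Cybb, and the lineage factor was Spi1. Lyz2, the lysozyme of macrophages and neutrophils, was 4.29 to 4.66 (median 4.42) in KI-treated and 3.97 to 5.25 (median 4.61) in control animals by its brightest probe. Its 3 probes gave differences of -0.13, 0.21 and 0.50 (SE 0.17, 0.20 and 0.26), the first being -0.02 without control 4, so no direction can be given. Ncf1, a cytosolic subunit of the phagocyte NADPH oxidase, was 0.13 to 0.35 (median 0.29) in KI-treated and 0.16 to 0.66 (median 0.40) in control animals. All 6 KI-treated animals lay below the control median, at a difference of -0.13 (SE 0.11, limma adjusted p = 0.548). A second probe of the same transcript, also well above background on all arrays, differed by -0.24 (SE 0.15, limma adjusted p = 0.459). Cybb, the catalytic subunit, was well above background on 1 array. Spi1, the master regulator of the myeloid lineage, spread over -5.50 to -1.45 in controls and -3.81 to -2.67 in KI-treated animals, and differed by -0.05 (SE 0.57). It was well above background on all 6 KI-treated but only 4 of 7 control arrays. Control 4, control 6 and control 7 fell short, so the low end of the controls lies below that call.

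Counted over the comparison, 0 of the 27 genes tested passed an adjusted p of 0.05, as did 0 of the 25717 probes tested (0.0%). Leaving aside Cx3cr1 and Lat2, 2 of 25 genes, Itgam and Clec10a, had an unadjusted limma p under 0.05 with a lower KI-treated mean, against 7.01% of all probes. None had one with a higher mean, against 5.71% of all probes. The share of the lower genes was thus near the background. Groups without overlap were found for 0 of the 27 genes, against 0.587% of all probes. The median difference of the 27 genes was -0.13, with 20 negative, RT1-Da among them at a value that rounds to 0, and 7 positive, beside a median of -0.08 and 60.7% negative over all probes. How probes with an unadjusted p under 0.05 split depended on the scaling. There were 1469 higher and 1802 lower here, 1823 and 1432 after quantile normalization, and 1166 and 3427 after normexp background correction with the same percentile.

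**Figure D2:**
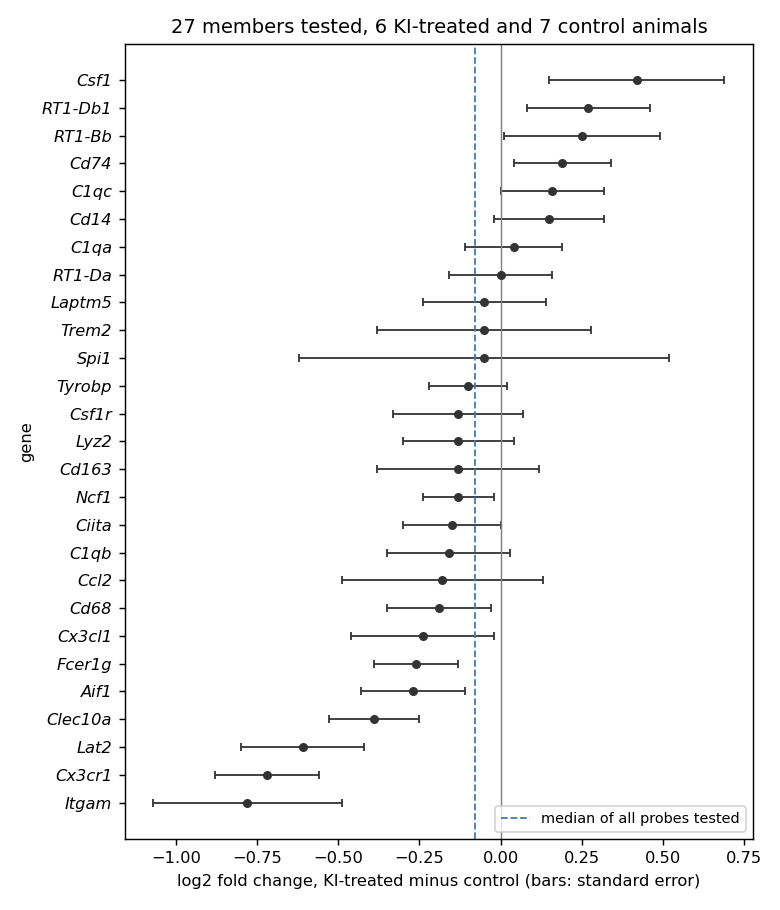
Difference between the group means of the 27 genes tested, KI-treated minus control, on the x axis in log2 units with standard errors as bars, one gene per line. The points run from -0.78 for Itgam to 0.42 for Csf1, and the dashed line is the median of all probes, -0.08.

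Cx3cr1, the fractalkine receptor of monocytes and resident macrophages, was selected on this comparison, so its values are a description and carry no test. Its brighter probe was 1.26, 1.36 and 1.69 at the lowest, median and highest of the KI-treated animals and 1.50, 2.17 and 2.62 of the controls. The KI-treated animals clustered closely, with an SD of 0.15 against 0.35, and 6 of the 7 controls lay above all of them. Control 6, a dim array, was the exception. The means were 1.40 and 2.12, and the KI-treated mean was lower on all 5 slides with both groups, by -1.18 to -0.09. A second probe, 2165 bases away in the array annotation and designed to a predicted transcript, was well above background on all arrays too. It read -1.18 to -0.56 in KI-treated and -1.61 to -0.45 in control animals, with means of -0.96 and -1.03. The probes did not move together between animals, with r = -0.20 over 13 animals after subtraction of the group means.

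Lat2, an adaptor of mast cells, B cells and myeloid cells, stands on the list that the study selected on this comparison and is likewise described only. By its brighter probe it was -3.27, -2.80 and -2.40 in the KI-treated and -2.70, -2.17 and -1.62 in the control animals. KI-treated 2 reached into the control range, and control 2 and control 6 into the KI-treated range. The means were -2.81 and -2.20. Their difference of -0.61 was -0.51 without control 4, the highest animal, and -0.87 to -0.05 within slides. The brighter probe was designed to a predicted transcript. The second probe, to the curated one and 2509 bases away, was well above background on only 7 arrays and gave means of -4.11 and -3.85. Its r with the first probe was -0.07. The first 30 of the 60 bases of each of these 4 probes, with rn4 positions from the array annotation that were not checked against a genome, are shown because the 2 probes of a gene gave different readings. No letters are in capitals, since no motif is marked.

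Cx3cr1 brighter probe, chr8:125033728-125033787, - strand: gagttcctgcatctgactctgtgtaatgaa
Cx3cr1 dimmer probe, chr8:125031563-125031622, - strand: tgtctatttcacttgtaattctgtcaataa
Lat2 brighter probe, chr12:23183357-23183416, + strand: taaagaaataaaaccaccccctcatcaaac
Lat2 dimmer probe, chr12:23180848-23180907, + strand: aagcccagacgaggagccagattacgtgaa

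**Figure D3:**
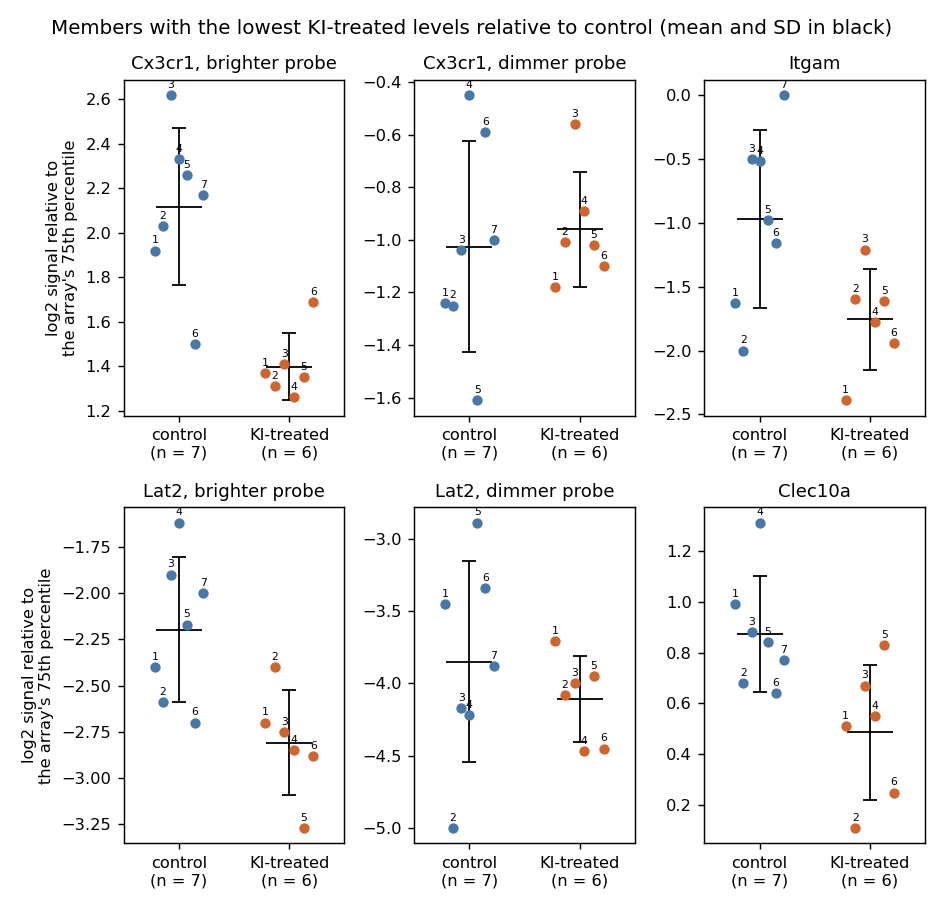
Level of both probes of Cx3cr1 and Lat2, and of Itgam and Clec10a, in each animal, on the y axis as log2 signal above the array's 75th percentile, with the group on the x axis (7 control, 6 KI-treated animals). Numbers are replicate numbers and black bars the mean and SD. The means lie apart for the brighter Cx3cr1 probe (2.12 in control and 1.40 in KI-treated animals), although control 6 lies inside the KI-treated range. For the dimmer probe the means are close (-1.03 and -0.96).

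Levels also varied together between animals. For 9 members the brightest probe was printed 10 times on each array. The SD between these spots had a median of 0.029 to 0.098 per gene, while the SD between animals of a group was 0.197 to 0.661, which is 4.19 to 14.2 times as large. Repeated spots do not take in the error of labelling and hybridisation. Over the 325 pairs of the 26 genes detected on all arrays, the median r after subtraction of group means was 0.24, beside 0.04 over all pairs of probes detected on all arrays. By a permutation test within groups, 54 pairs had an unadjusted p under 0.05 and 15 passed after Benjamini-Hochberg adjustment over the 325 pairs, all positive. The number that passed was 0 without control 4, when the median r was 0.10, and 0 without control 5. It was 6 after quantile normalization and 3 in the deposited values.

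The highest correlation joined Cd68 and C1qb, with r = 0.95 (permutation p = 2e-05, adjusted 0.0065) and rho = 0.94 (permutation p = 4e-05, adjusted 0.013) over 13 animals. It was 0.93 without the 2 animals farthest from the Cd68 median, KI-treated 1 and control 4, and 0.96 with slide means subtracted. Cd68 and Laptm5 gave r = 0.89 (permutation p = 0.00074, adjusted 0.0401) and rho = 0.76 (permutation p = 0.00528, adjusted 0.123). Without the same 2 animals r was 0.64, and within slides 0.98. Fcer1g and C1qb gave r = 0.89 (permutation p = 0.00073, adjusted 0.0401) and rho = 0.68 (permutation p = 0.014, adjusted 0.171), with 0.75 without control 4 and control 6 and 0.92 within slides. All these genes had their highest level in control 4. That animal and KI-treated 2 were the only ones on slide 1, so r within slides keeps the contrast between them. It is no check on what these 2 animals contribute. Slides held few animals, and slide 6 only control 7, so every r within slides rests on fewer independent values than 13.

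Tyrobp and C1qb followed with r = 0.89 (permutation p = 0.00106, adjusted 0.0401) and rho = 0.82 (permutation p = 0.00172, adjusted 0.103). Without KI-treated 2 and control 4 this was 0.64, and within slides 0.95. Tyrobp and Fcer1g had r = 0.87 (permutation p = 0.00177, adjusted 0.0401) and rho = 0.64 (permutation p = 0.0214, adjusted 0.196). Here r fell to 0.51 without those 2 animals, and was 0.89 within slides, where both are kept. Cd68, C1qb, Tyrobp, Fcer1g and Laptm5, grouped after their values were seen, had r of 0.79 to 0.95 for their 10 pairs. Without control 4 the lowest of these was 0.61 and the median 0.68, values that the choice of these genes by their correlation in the same animals favours. On that array the summed levels of the follicular cell, B cell, plasma cell, mast cell and endothelial markers were the highest of all animals. The plasma cell sum of 4.90 there came mostly from Xbp1 at 4.86. The thymocyte sum was highest there too, but through Cd1d1 at 2.36, while Rag1, Rag2 and Dntt were at -6.26, -6.12 and -6.07. The part of these lists in the pattern was not tested. The resident macrophage and dendritic cell sums were highest there too, but these lists hold members, Cd68 and C1qb among them.

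Of the class II genes, all 10 pairs of Cd74, RT1-Da, RT1-Db1, RT1-Bb and Ciita were positive, with r of 0.09 to 0.78 and a median of 0.53, which was 0.42 without KI-treated 1. None of the 10 passed the adjusted threshold, and 232 of all 325 pairs were positive. C1qa, C1qc and Cd163, also grouped after their values were seen, had r of 0.75 to 0.84, and of 0.64 to 0.71 without control 1. The 3 C1q chains had r of 0.42 to 0.75 between them. Cx3cr1 and Csf1r, also picked after the values were seen, had r = 0.75 (permutation p = 0.0328, adjusted 0.243) and rho = 0.36 (permutation p = 0.276, adjusted 0.694). This was 0.75 without control 3 and control 4 and 0.71 within slides, but 0.31 without control 6, so that the relation rests on that array.

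The lowest correlation was between RT1-Db1 and Cx3cl1, with r = -0.70 (permutation p = 0.0193, adjusted 0.174) and rho = -0.78 (permutation p = 0.00493, adjusted 0.123). It was -0.63 without control 4, -0.57 without control 6 and -0.24 without both, the 2 dim arrays, so it depends on these 2 together. Quantile normalization gave -0.65, and slide means subtracted left -0.50. C1qc and Trem2 gave r = -0.52 (permutation p = 0.0868, adjusted 0.388) and rho = -0.59 (permutation p = 0.0532, adjusted 0.314), with -0.26 without the 2 farthest animals and -0.85 within slides. Csf1r and Ncf1 gave r = -0.52 (permutation p = 0.166, adjusted 0.541) and rho = -0.30 (permutation p = 0.376, adjusted 0.779). This turned to 0.25 without control 5 and control 6 and was -0.45 within slides. No negative pair passed the adjusted threshold.

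**Figure D4:**
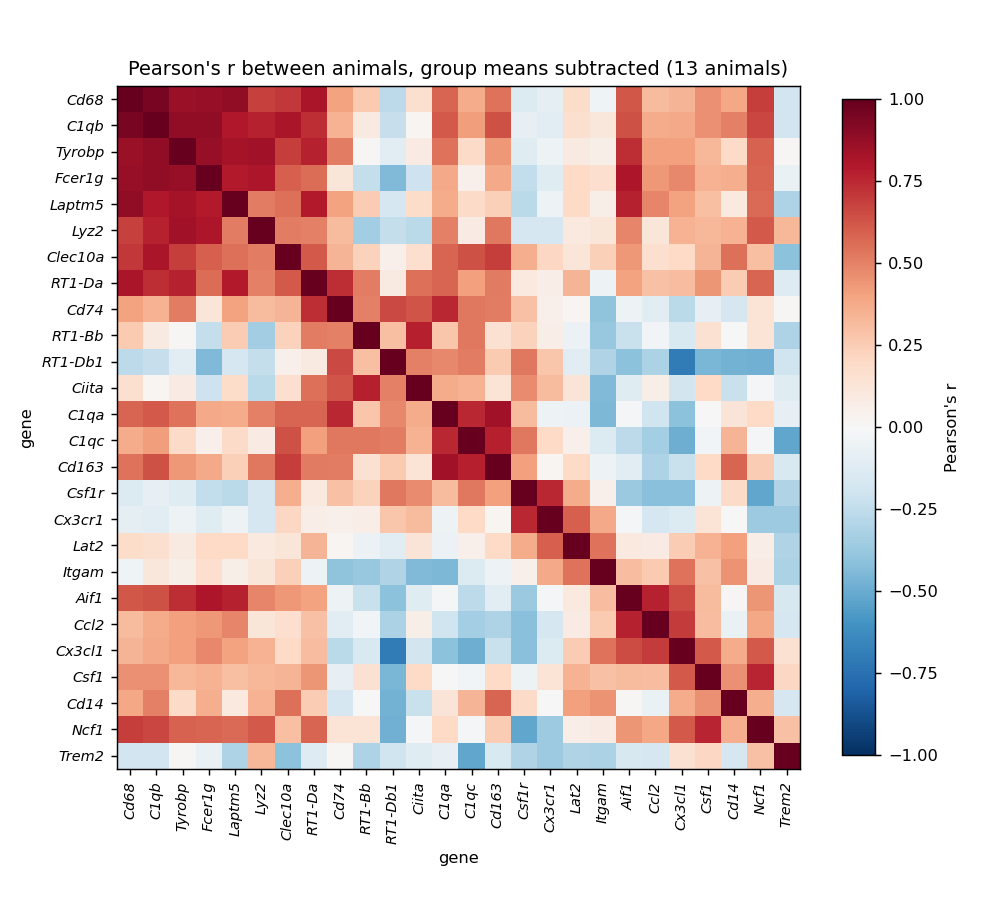
Pearson correlation between animals for the 325 pairs of 26 genes, with genes on both axes and colour for r from -1 to 1 after subtraction of group means (13 animals). The red corner holds Cd68, C1qb, Tyrobp, Fcer1g and Laptm5 (0.79 to 0.95), and the darkest blue cell is RT1-Db1 with Cx3cl1 (-0.70).

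The wider pathway was read from a list of 74 further phagocyte, dendritic cell and class II genes, of which 1 had no probe, 14 were too dim and 59 were tested. None passed the adjusted threshold. Unadjusted limma p-values under 0.05 were found for 5 genes with higher and 3 with lower KI-treated means, which is 5 and 3 of 59 beside 5.71% and 7.01% of all probes, and the median difference was -0.01. Fcgr3a, a low-affinity Fc receptor that signals through Fcer1g, had means of -3.26 and -4.59 in KI-treated and control animals, with a limma adjusted p of 0.353. It was well above background on all 6 KI-treated but only 2 control arrays, so it passed the filter through the KI-treated group. The 5 higher genes include it, so that count is not free of the filter. Id2, a factor needed for dendritic cell development, differed by 0.36 (SE 0.11, limma adjusted p = 0.353) and the lysosomal protease Lgmn by 0.43 (SE 0.14, limma adjusted p = 0.353). The smallest p-values with lower means belonged to the myeloid and adipocyte factor Cebpa at -0.55 (SE 0.24) and the lymphoid and dendritic cell factor Irf4 at -0.65 (SE 0.29), with limma adjusted p-values of 0.384 and 0.385.

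Markers of resident macrophages were well above background on all arrays for 6 of 8 genes, C1qb being the brightest, and their summed level was 3.56 to 4.13 in KI-treated and 3.64 to 4.62 in control animals. For dendritic cells the call held for 3 of 6 genes with a probe, Clec10a being the brightest and Xcr1 not well above background on any array, with sums of 1.13 to 1.62 and 1.41 to 2.04. All resident macrophage markers but Adgre1 are members themselves, and so are Clec10a and Ciita of the dendritic cell list. Both sums thus repeat values of members. Neutrophil markers were well above background on all arrays for 0 of 6 genes, and Elane, Ngp and Camp on none. Their brightest gene, S100a9, was -3.95 to -2.98 in KI-treated and -4.47 to -0.55 in control animals. For plasma cells (Xbp1 brightest) and mast cells (Cma1 brightest), 2 of 3 and 4 of 5 genes were detected on all arrays, with sums of 3.83 to 4.35 and 2.15 to 2.73 in KI-treated and 3.90 to 4.90 and 2.30 to 3.26 in control animals. The brightest markers of the other lists were Calca for C cells, Pth for parathyroid, Cd1d1 for thymocytes, Ucp1 for adipocytes, Mylpf for skeletal muscle, Hbb for red cells and Kdr for endothelium. Their genes with a probe were well above background on all arrays in 5 of 5, 2 of 3, 1 of 4, 3 of 5, 4 of 5, 3 of 3 and 5 of 5 cases. The summed skeletal muscle level was 0.75 to 4.96 in KI-treated and 3.34 to 6.49 in control animals. The C cell, parathyroid and thymocyte sums were 7.38 to 8.16, 8.41 to 8.84 and 0.80 to 2.12 in KI-treated and 6.79 to 8.14, 8.63 to 9.38 and 0.75 to 2.37 in control animals. Adipocyte and red cell sums were 5.58 to 7.18 and 2.77 to 3.55 in KI-treated and 5.96 to 7.14 and 2.12 to 3.13 in control animals. The endothelial sum was 6.45 to 6.84 in KI-treated and 6.34 to 7.31 in control animals. Whether the cell types of the lists without members moved the values of the members was not tested.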

How the data were processed

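Total RNA of 13 thyroids was labelled with Cy3 and hybridised to 1-colour Agilent rat arrays on 6 slides scanned in 3 sessions. Per the file headers, Agilent Feature Extraction 10.7.3.1 made the deposited intensity of each spot, background-subtracted and detrended, with rn4 annotation. The authors also deposited a log2 table (column medians 6.20 to 6.34, normalization not given in the sources used here), which was used as an alternative.

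Outlier spots were left out, spots of a probe were averaged as log2 intensity, and the 75th percentile over 45598 probes was subtracted per array. The 25717 probes called above background on 6 or more arrays were tested with limma 3.58.1 (lmFit, eBayes, Benjamini-Hochberg, threshold 0.05), with R 4.3.3. A gene was read by its brightest probe. Correlations used 100000 permutations within groups. Simulated probes with a log2 change of 1 were recovered in 67.5% and of 0.5 in 0% of 200 cases. They were drawn independently of each other, unlike the real probes, so these shares are not the recovery in the real comparison. The number of arrays limits the precision.

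The members and lists were chosen with earlier results of these data known. Named beside the members were the 3 other genes with the smallest p in each direction and the 5 highest and 3 lowest pair correlations. One gene that this rule names and 1 marker list are not reported here. Alternatives covered scaling, background correction, filters, slide, scan session and replicate blocks, array weights, probe averaging, the methods' t-test, and leaving out each animal.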

Additional observations from a re-analysis of the deposited data

Results flagged for a closer look

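In 54 groups of values (27 genes in each of the 2 treatment groups), Dixon's gap criterion singled out 6 values. Chance alone picks about 1 group in 20 where groups are independent. Genes here varied together between animals, so the 6 values are not separate events to set against that rate. Control 4 was the highest of the controls for Cd68 (1.19, the others 0.29 to 0.63), Tyrobp (2.30, the others 1.56 to 1.87) and RT1-Da (2.36, the others 1.53 to 1.82). Control 6 was the lowest of the controls for Csf1r, at -2.89 against -1.94 to -1.39. KI-treated 6 was the highest of its group for Cx3cr1, at 1.69 against 1.26 to 1.41. KI-treated 2 was the lowest of its group for Aif1, at 0.91 against 1.33 to 1.52.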

How the results depend on the processing

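Across the 26 alternatives, 658 of 701 values of single genes kept their direction and their side of the adjusted threshold. With array weights 50 probes passed the adjusted threshold, among them Cx3cr1, which was selected on this comparison and is not counted as a test, and 0 of the 25 other members. With a scan session block 5120 probes had an unadjusted p under 0.05, against 3271. With a slide block 1 member, Cd14 (0.23), was higher at an unadjusted p under 0.05. By the methods' t-test 5 other phagocyte genes had an unadjusted p under 0.05, against 8. The replicate block gave 0 probes past the adjusted threshold, 2356 under 0.05 unadjusted, 2 lower of the 25 members and a median difference of -0.16, and changed no call. Deviations of same-numbered animals correlated at -0.22 to 0.06 over 6 pairs, and 0 of 6 KI-treated animals correlated best with the control of its number. These values show no pairing but cannot exclude that a number stands for something shared.

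Pairs of members past the adjusted threshold numbered 6 after quantile normalization, 2 after normexp with the 75th percentile, 5 after normexp with quantile normalization, 3 in the deposited values, 1 with the percentile over all gene spots (chosen after seeing the data) and 1 by Spearman's rho, against 15. The median r was 0.38 within slides. Leaving out 1 animal gave 0 to 1 probes past the adjusted threshold, 2364 to 4598 under 0.05 unadjusted, 0 members past the adjusted threshold, 2 to 3 lower members, 4 to 13 other phagocyte genes, a median r of 0.10 to 0.27 and 0 to 14 pairs.

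Directions turned for genes with differences near 0. With array weights the differences of Tyrobp, C1qb, Lyz2, RT1-Da, Laptm5 and Trem2 were 0.04, 0.05, 0.10, 0.11, 0.14 and 0.21. RT1-Da, at a negative value that rounds to 0, was at 0.07 after quantile normalization, 0.02 after normexp with the 75th percentile, 0.06 after normexp with quantile normalization, 0.07 in the deposited values and 0.08 with the percentile over all gene spots. Laptm5 was at 0.04 after quantile normalization, 0.03 after normexp with quantile normalization and 0.04 in the deposited values. Spi1 was at 0.01 after quantile normalization and Trem2 at 0.00 after normexp with quantile normalization. With the percentile over all gene spots Laptm5, Spi1 and Trem2 were each at 0.03. C1qa was at -0.03 with a slide block and -0.04 with a scan session block, and Lyz2 at 0.19 as the mean of its probes. Leaving out 1 animal turned RT1-Da (-0.09 to 0.09), C1qa (-0.02 to 0.13), Laptm5 (-0.17 to 0.07), Spi1 (-0.41 to 0.27), Trem2 (-0.21 to 0.12) and Cd163 (-0.25 to 0.05). The cause was not tested. Genes below the background call have no usable value at this signal.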
